A study of Caenorhabditis elegans with 9 samples.

Results

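The 303 exons described here are the triplet cassette exons over 60 nt of *C. elegans*, that is, the cassette exons of the *smg-1* splicing table that are longer than 60 nt and whose length is divisible by 3, chosen from 786 cassette exons on length alone. RNA-Seq was done on polyA RNA of whole L4 animals, with 3 libraries per genotype. The genotypes were *smg-1* (strain TR1331, labelled knockout), *smg-2* (strain CB4043, labelled knockout) and wild-type (strain N2). Each mutant was represented by 1 strain, so the mutation and the rest of that strain's background cannot be told apart, and the methods of the study call the replicates biological. Inclusion was expressed as percent spliced in (PSI), the share of junction reads of an event that does not skip the exon. Of the 303 exons, 302 had at least 2 PSI values in both *smg-1* and wild-type and could be tested. For *smg-2*, 209 had values of their own, 43 were left out because the *smg-2* table repeated the *smg-1* values, and 51 were not in that table.

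A cassette exon is either kept in the mRNA or skipped with its flanking introns. If its length is a multiple of a codon, the reading frame downstream is the same in both isoforms, so such exons are usually read as adding or removing a stretch of protein. An exon that carries a stop codon in the frame it is read in can still end the protein early, and when that stop lies well upstream of the last exon junction the mRNA is a substrate of nonsense-mediated decay (NMD), for which SMG-1, the kinase that phosphorylates SMG-2, and SMG-2, the UPF1 helicase, are required. Exons of this kind, called poison exons, are well known in genes of splicing factors.

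In 284 of the 303 exons the flanking exons matched a coding transcript of the WBcel235 annotation and the exon lay inside its coding sequence. Read in the frame of the upstream exon, 41 of these 284 (14.4%) held a stop codon and 243 did not. The codon was TGA in 22, TAA in 13 and TAG in 6, and in 3 (*zen-4*, *mec-2* and *F14F3.5*) it was the stop of the annotated protein. The stop began at a median of 29 nt into the exon and within the first 60 nt in 32 of the 41. The sequences below are those that the results turn on: first 5 exons that rose in the mutants, then *sos-1*, whose exon holds a stop and did not pass the test, and then 2 stop-free exons. They were read from the WBcel235 genome on the strand of the gene, with the in-frame stop in capitals; the stop-free exons have no capitals. For *rsp-4* only the first 37 of 186 nt, up to the stop, are shown.
rsp-8 chrIII:11826643-11826735 (+): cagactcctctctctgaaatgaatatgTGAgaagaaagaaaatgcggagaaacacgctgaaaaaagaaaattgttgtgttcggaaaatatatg
rsp-4 chrII:5388299-5388335 (-): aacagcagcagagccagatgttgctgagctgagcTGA
sma-2 chrIII:8754856-8754984 (+): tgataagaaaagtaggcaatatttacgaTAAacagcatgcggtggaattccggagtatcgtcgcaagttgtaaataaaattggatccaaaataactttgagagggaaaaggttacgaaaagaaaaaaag
T25D10.4 chrII:6409752-6409886 (-): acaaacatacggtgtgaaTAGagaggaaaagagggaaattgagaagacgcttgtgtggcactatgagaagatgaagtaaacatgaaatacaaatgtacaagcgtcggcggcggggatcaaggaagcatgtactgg
F11E6.4 chrIV:17469774-17469881 (-): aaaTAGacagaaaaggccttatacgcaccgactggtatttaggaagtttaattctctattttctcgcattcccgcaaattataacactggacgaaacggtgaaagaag
sos-1 chrV:4538311-4538385 (-): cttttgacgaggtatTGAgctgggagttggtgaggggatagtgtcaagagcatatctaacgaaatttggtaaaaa
egl-8 chrV:23562-23645 (+): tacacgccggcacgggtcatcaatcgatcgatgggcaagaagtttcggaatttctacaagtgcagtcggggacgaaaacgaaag
unc-43 chrIV:10336112-10336264 (-): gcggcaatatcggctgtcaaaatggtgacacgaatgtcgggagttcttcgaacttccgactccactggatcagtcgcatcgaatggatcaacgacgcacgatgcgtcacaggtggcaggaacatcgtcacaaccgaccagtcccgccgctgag

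The stop stood at nt 28 of the *rsp-8* exon, nt 35 of *rsp-4*, nt 29 of *sma-2*, nt 19 of *T25D10.4*, nt 4 of *F11E6.4* and nt 16 of *sos-1*. With these exons included, the reading frames came to 26 codons in place of 309 for *rsp-8*, 126 in place of 196 for *rsp-4*, 188 in place of 418 for *sma-2* and 952 in place of 1493 for *sos-1*. The 84 nt exon of *egl-8*, by contrast, gave a frame of 1512 codons where skipping gave 1484. The stop-holding exon of *cisd-3.1*, which also rose, gave 166 codons included and 160 skipped, so its stop did not shorten the frame.

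Junction reads over the 303 exons summed to 45028 to 98158 per library in *smg-1*, to 12521 to 35948 in *smg-2*, where 209 exons had values, and to 28294 to 71558 in wild-type. Libraries differed in how far they lay from their own group. Over exons with a median of at least 50 junction reads, wild-type library 2 lay a mean of 6.08 points from the median of its group, against 1.72 and 3.78 points for wild-type libraries 1 and 3, 1.69 to 2.92 points in *smg-1* and 3.71 to 5.76 points in *smg-2*. The 96 nt exon of *epi-1*, a laminin alpha chain, is an example chosen after its values were seen: its PSI was 40.2, 50.7 and 54.3% in *smg-1*, 37.0, 56.7 and 16.8% in *smg-2*, against 42.4, 85.3 and 31.1% in wild-type. The 85.3% of wild-type library 2 rested on 183 reads (Wilson 95% interval 79.4 to 89.7%, covering counting error only). Counts of calls are also given without this library.

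In wild-type animals the exons spanned the full range of inclusion. The median PSI was 58.3% (quartiles 24.3 and 82.5%), and 207 of 303 (68.3%) lay between 10 and 90%. Frame-shifting exons over 60 nt had a median of 83.8%, with 38.9% of 288 between 10 and 90%. Triplet exons of 60 nt or less had a median of 26.5%, with 73.7% of 156 in that range. The spread over libraries of a genotype was a median SD of 3.40 points in *smg-1*, 6.53 points in *smg-2* and 4.99 points in wild-type. Mean PSI of the mutant ran only between 5.08 and 94.997% in *smg-1* and between 5.39 and 94.6% in *smg-2*, while wild-type means ran between 0 and 100%. The 29 exons with a wild-type mean under 5% could thus be listed only with a higher value in *smg-1*, and the 20 with one over 95% only with a lower value, and the counts below are to be read with that limit.

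An exon was called changed when mean PSI differed by over 10 points and the adjusted p was under 0.05 (limma on the logit of PSI, Benjamini-Hochberg adjustment over all cassette exons tested). In *smg-1*, 17 of the 302 exons rose and 4 fell against wild-type. Over all 782 cassette exons tested, 6.27% rose and 6.52% fell, so the share of triplet exons over 60 nt that rose (5.63%) was close to the background and the share that fell (1.32%) was below it. In *smg-2*, 8 of 209 rose and 1 fell against wild-type, where 6.83% of all 498 exons rose and 8.23% fell. Frame-shifting exons over 60 nt gave 21 that rose and 38 that fell of 287 in *smg-1*, and 19 and 35 of 150 in *smg-2*. Without wild-type library 2 the counts were 18 rises and 5 falls in *smg-1*, one of these falls (*Y48G9A.6*) resting on a single wild-type library, and 8 rises and 2 falls in *smg-2*. Where wild-type animals included the exon at 10 to 90%, 4 of 206 were called in *smg-1* and 0 of 164 in *smg-2*, where 7 had an unadjusted p under 0.05. Over all cassette exons at this level, 23 of 451 were called in *smg-1* and 15 of 341 in *smg-2*. The 4 were *R05D3.12*, *F13B12.7*, *tsp-19* and *F46C5.6*. Each of these calls was lost on leaving out any 1 of 3 to 5 libraries.

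Of the 17 exons that rose in *smg-1*, 3 were in genes of the splicing list described further on. All 3 had wild-type means under 5%, where the listing allowed only a higher mutant value. RBM-39, an RNA-binding splicing factor, gave the largest rise that was measured in both mutants. Its 66 nt exon (chrIV:1013075-1013140, plus strand, exon 3 of 8 with the stop at nt 35) had a PSI of 54.2, 54.3 and 56.9% in *smg-1*, 60.3, 58.2 and 67.6% in *smg-2*, against 2.83, 3.36 and 3.77% in wild-type. Every mutant library lay far above every wild-type library. The differences were 51.8 points in *smg-1* (adjusted p = 0.00048) and 58.7 points in *smg-2* (adjusted p = 0.00044). The 93 nt exon of *rsp-8*, an SR family splicing factor, is not in the annotation (the files list it under *F45H7.10*), and its PSI was 61.5, 67.0 and 55.4% in *smg-1* and 3.98, 1.57 and 4.33% in wild-type (57.98 points, adjusted p = 0.00077). The 186 nt exon of *rsp-4*, an SR protein of the SC35 type, was read most deeply of all the exons that rose, with a median of 1311.5 junction reads. Its PSI was 20.9, 18.8 and 19.1% in *smg-1*, 23.4, 22.9 and 28.5% in *smg-2*, against 3.22, 1.82 and 4.14% in wild-type. The 3 groups of values did not overlap, and the differences from wild-type were 16.5 points in *smg-1* (adjusted p = 0.0027) and 21.9 points in *smg-2* (adjusted p = 0.0019). Tested directly by limma, *smg-2* differed from *smg-1* by 5.32 points with an adjusted p of 0.68, so no difference between the mutants was called.

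**Figure D1:**
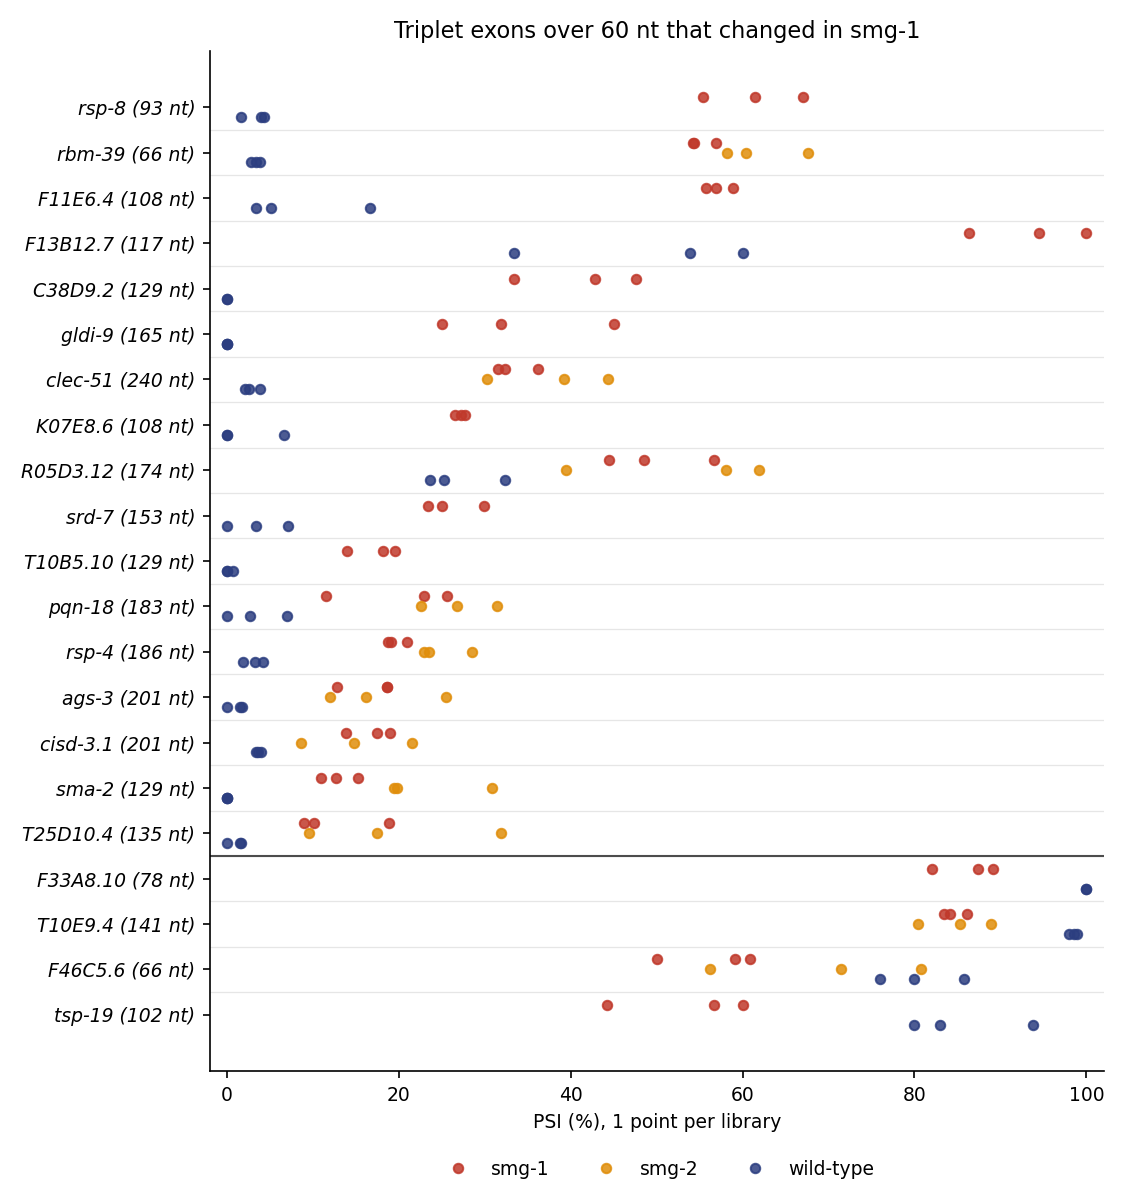
PSI (%) of the 21 triplet exons over 60 nt that changed in *smg-1*, 1 point per library, with *smg-1* above, *smg-2* in the middle where it had values of its own, and wild-type below in each row. The 17 exons above the line rose, 14 of them with a wild-type mean under 5%, and the 4 below it fell.

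Further exons rose in both mutants. The exons of this paragraph had wild-type means under 5%, where the listing allowed only a higher mutant value, so their direction was set by it. The 240 nt exon of *clec-51*, a C-type lectin, had a PSI of 31.5, 36.2 and 32.3% in *smg-1*, 39.2, 44.4 and 30.3% in *smg-2*, against 2.56, 3.81 and 2.09% in wild-type. The 129 nt exon of *sma-2*, a Smad of the TGF-beta pathway that sets body size, had 10.95, 15.3 and 12.7% in *smg-1*, 19.7, 19.4 and 30.8% in *smg-2*, against no inclusion read in any wild-type library. *clec-51* mutant values were all above 30%, and those of *sma-2* were lower in each *smg-1* library than in each *smg-2* library. The direct test of *smg-2* against *smg-1* gave *sma-2* a difference of 10.3 points with an adjusted p of 0.42. The 201 nt exon of *ags-3*, an activator of G-protein signalling, averaged 16.7 ± 3.36% in *smg-1*, 17.9 ± 6.93% in *smg-2* and 1.06 ± 0.93% in wild-type (SD, n = 3 each; adjusted p = 0.00097 and 0.0016). The 183 nt exon of *pqn-18*, named for a prion-like glutamine- and asparagine-rich domain, averaged 20.04% in *smg-1*, 26.9% in *smg-2* and 3.24% in wild-type (adjusted p = 0.038 in *smg-1* and 0.014 in *smg-2*). *pqn-18* was less secure, since its *smg-1* call was lost on leaving out any *smg-1* library or wild-type library 1, with adjusted p up to 0.14, and its *smg-2* call without *smg-2* library 1 or 2 or wild-type library 1. *cisd-3.1*, of the CDGSH iron-sulfur family, and *T25D10.4* completed the exons that rose in *smg-2*. The exon of *cisd-3.1* averaged 16.7% in *smg-1*, 14.95% in *smg-2* and 3.61% in wild-type. That of *T25D10.4* averaged 12.6% in *smg-1*, 19.6% in *smg-2* and 1.05% in wild-type. Leaving out *smg-1* library 3 took the difference of *T25D10.4* to 8.47 points, and the *smg-2* call of *cisd-3.1* was lost without *smg-2* library 1 or 2 or wild-type library 1 or 3 (adjusted p up to 0.089). The 2 mutants were compared with the same wild-type libraries, so their differences are not independent.

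Several exons that rose in *smg-1* had no *smg-2* values of their own. These were *F11E6.4* (57.2 ± 1.61% in *smg-1*, 8.36 ± 7.25% in wild-type), *gldi-9* (33.97 ± 10.2% in *smg-1*, no inclusion read in wild-type), *K07E8.6* (27.2 ± 0.57% in *smg-1*, 2.22 ± 3.85% in wild-type), *srd-7*, a serpentine receptor (26.1 ± 3.40% in *smg-1*, 3.49 ± 3.57% in wild-type), *T10B5.10* (17.2 ± 2.90% in *smg-1*, 0.23 ± 0.40% in wild-type; SD, n = 3 each), *C38D9.2* and *F13B12.7*. Median junction reads over *smg-1* and wild-type were 14.5 for *gldi-9* (6 in wild-type alone), 30 for *srd-7* and 31 for *K07E8.6*. They were 66 for *F11E6.4* and 168 for *T10B5.10*. Of the 17 exons that rose, 5 had a median under 50 reads. *gldi-9*, *K07E8.6*, *srd-7*, *T10B5.10* and *C38D9.2* had wild-type means under 5%, where the listing allowed only a higher value. The exon of *C38D9.2* had 33.3, 47.6 and 42.9% in *smg-1* and no inclusion read in the 2 wild-type libraries that covered it. That of *F13B12.7* had 86.4, 94.4 and 100% in *smg-1* and 33.3, 60 and 53.9% in wild-type. In both genes the lowest *smg-1* library was above the highest wild-type library. In *F11E6.4* the wild-type libraries themselves differed, with 3.33, 16.7 and 5.08%, but all lay below the lowest *smg-1* library at 55.7%. Of the exons that rose and held a stop, that of *R05D3.12* (174 nt) had the highest wild-type level, with 48.5, 44.4 and 56.7% in *smg-1*, 39.4, 58.0 and 61.9% in *smg-2*, against 25.2, 32.3 and 23.7% in wild-type. It passed in *smg-1* (22.8 points, adjusted p = 0.032) and not in *smg-2* (26.1 points, adjusted p = 0.060). The *smg-1* call of *R05D3.12* was lost without any of the *smg-1* libraries or wild-type library 1 or 3 (adjusted p up to 0.11), that of *srd-7* without any *smg-1* library (up to 0.071), that of *K07E8.6* without *smg-1* library 2 or 3 (up to 0.058) and that of *F13B12.7* without *smg-1* library 2 or wild-type library 1 or 3 (up to 0.080). Of the 21 calls in *smg-1*, 13 held on leaving out each library in turn, and of the 9 in *smg-2*, 7 did. With inclusion reads halved, since an included exon has 2 junctions and a skipped one has 1, the *smg-1* calls of *T10B5.10*, *pqn-18*, *rsp-4*, *ags-3*, *sma-2*, *cisd-3.1* and *T25D10.4* and the *smg-2* calls of *ags-3* and *cisd-3.1* were lost. A test on PSI without the logit ended the *smg-1* calls of *pqn-18* and *T25D10.4* and the *smg-2* calls of *ags-3*, *cisd-3.1* and *T25D10.4*.

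All 15 of the exons that rose in *smg-1* and lay inside coding sequence held an in-frame stop. The other 2 were *C38D9.2*, in a 5' UTR and with a median of 14 junction reads, and *F13B12.7*, whose exon holds the annotated start codon and which had 13. Of the 15 with a stop, 13 had a wild-type mean under 5%, where the listing allowed only a higher value. Of the 242 coding exons without a stop that were tested, 0 rose and 1 fell in *smg-1* (limma; unadjusted p under 0.05 in 9 that were higher and 4 that were lower), 2 more were lower at an adjusted p under 0.05 by under 10 points, and the median difference of the 242 was -0.12 points. The 2 were *Y48C3A.18* (92.9% in *smg-1*, 99.2% in wild-type) and *F21D9.2* (92.2% in *smg-1*, 98.7% in wild-type), named after their values were seen. In both, and in *adt-1* and *abtm-1*, the skipped isoform has a stop at the new joint, so 4 of the stop-free exons have a stop on skipping. The wild-type levels of *Y48C3A.18* and *F21D9.2* were over 95%, where the listing allowed only a lower value in *smg-1*. In *smg-2*, 0 of 179 such exons were called (unadjusted p under 0.05 in 7 higher and 2 lower; median -0.75 points). The median difference over all triplet exons over 60 nt tested was 0.73 points for *smg-1* (all cassette exons -0.42) and 0.34 points for *smg-2* (all cassette exons -0.13).

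**Figure D2:**
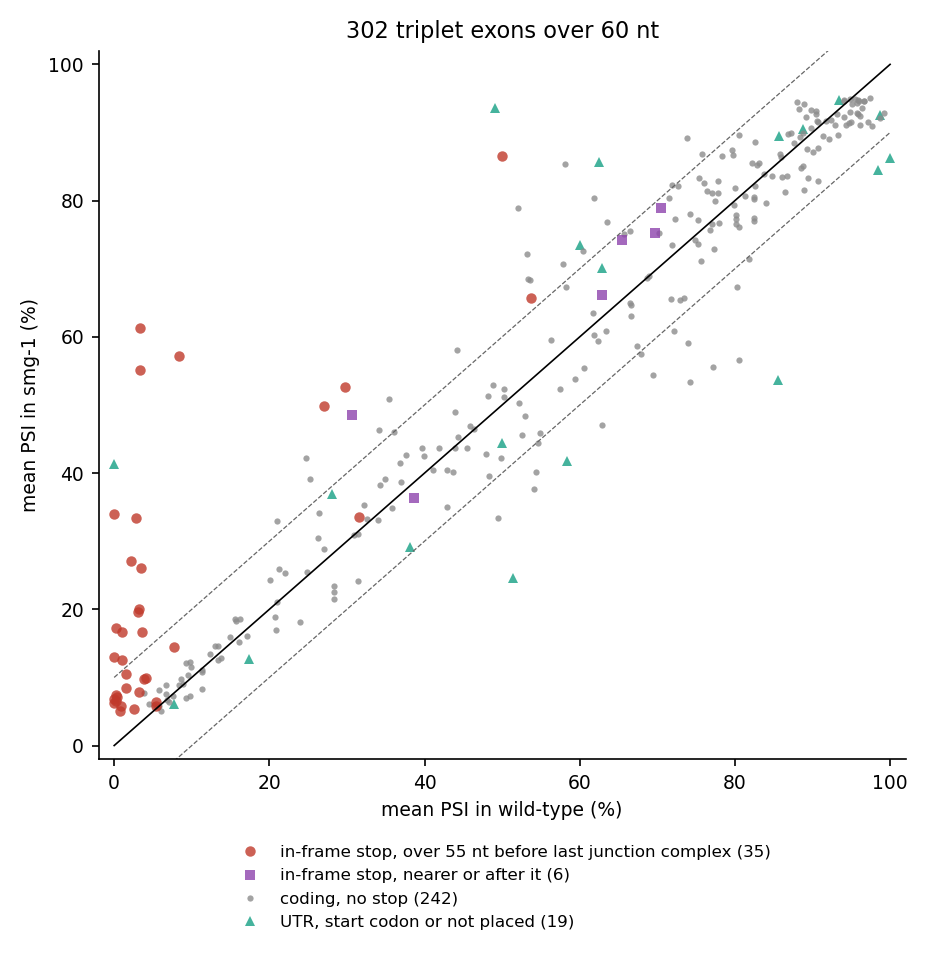
Mean PSI in *smg-1* (vertical axis, %) against wild-type (horizontal axis, %) for the 302 exons tested, by stop codon class; the solid line marks equal PSI and the dashed lines a difference of 10 points. Of the 35 exons with a stop over 55 nt before the last junction complex, 26 lie at the left edge, under 5% in wild-type. The listing allowed these 26 only a higher *smg-1* value. All 35 lie above the diagonal, and stop-free exons scatter around it with a median difference of -0.12 points.

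The stop-holding exons were also described by the place of the stop relative to the last exon junction. With the last exon junction complex set 25 nt upstream of the last junction, the stop of 35 exons lay more than 55 nt before it and that of 6 lay nearer or after it. In *smg-1*, 15 of the 35 (42.9%) rose, 9 more had an adjusted p under 0.05 at under 10 points, all of them higher in *smg-1*, and 11 did not pass. In *smg-2*, 8 of 17 (47.1%) rose. Of the 35, 26 had a wild-type mean under 5%, as did 13 of the 17. The listing allowed these only a higher value in the mutant. The median PSI of the 35 was 14.4% in *smg-1* and 3.06% in wild-type. None of the 6 with a nearer stop was called in either mutant by limma, and 0 had an unadjusted p under 0.05. Their median PSI was 70.2% in *smg-1* and 64.2% in wild-type. These 6 were the exons of *zen-4*, a mitotic kinesin, *mec-2*, a stomatin of touch receptor neurons, *nhr-65*, a nuclear hormone receptor, *glt-4*, a glutamate transporter, *Y47G6A.7* and *F14F3.5*. The *zen-4* exon, for example, averaged 78.9 ± 1.70% in *smg-1*, 71.97 ± 17.2% in *smg-2* and 70.4 ± 13.5% in wild-type (77.9% without wild-type library 2), and that of *nhr-65* 66.2 ± 8.98% in *smg-1*, 65.2 ± 2.63% in *smg-2* and 62.8 ± 8.90% in wild-type (SD, n = 3 each).

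Among the listed exons, the stop and the wild-type level went together. Of the 29 exons with a wild-type mean under 5%, 26 held a stop over 55 nt before the last junction complex, 2 were coding without a stop and 1 lay outside coding sequence, and of the 20 over 95% none held a stop. As an exon under 5% in wild-type was listed only if its *smg-1* mean exceeded 5%, the direction of those 26 was set by the listing. Exons that stayed under 5% or over 95% in both genotypes were not listed. The numbers with and without a stop at these levels were thus not free of the listing either. Of the other 9 with such a stop, 2 rose (*R05D3.12* and *F11E6.4*), and of the 6 with a nearer stop, none of which was under 5% in wild-type, 0 rose. The wild-type mean of *F11E6.4* was 8.36% with all libraries and 4.21% without wild-type library 2, so its direction too was set by the listing without that library, and the call of *R05D3.12* was lost on leaving out any of 5 libraries. No test of stop position free of the listing was made. Of the 41 exons with any in-frame stop, 29 are not annotated as exons, and of the 243 stop-free ones 14 are not.

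**Figure D3:**
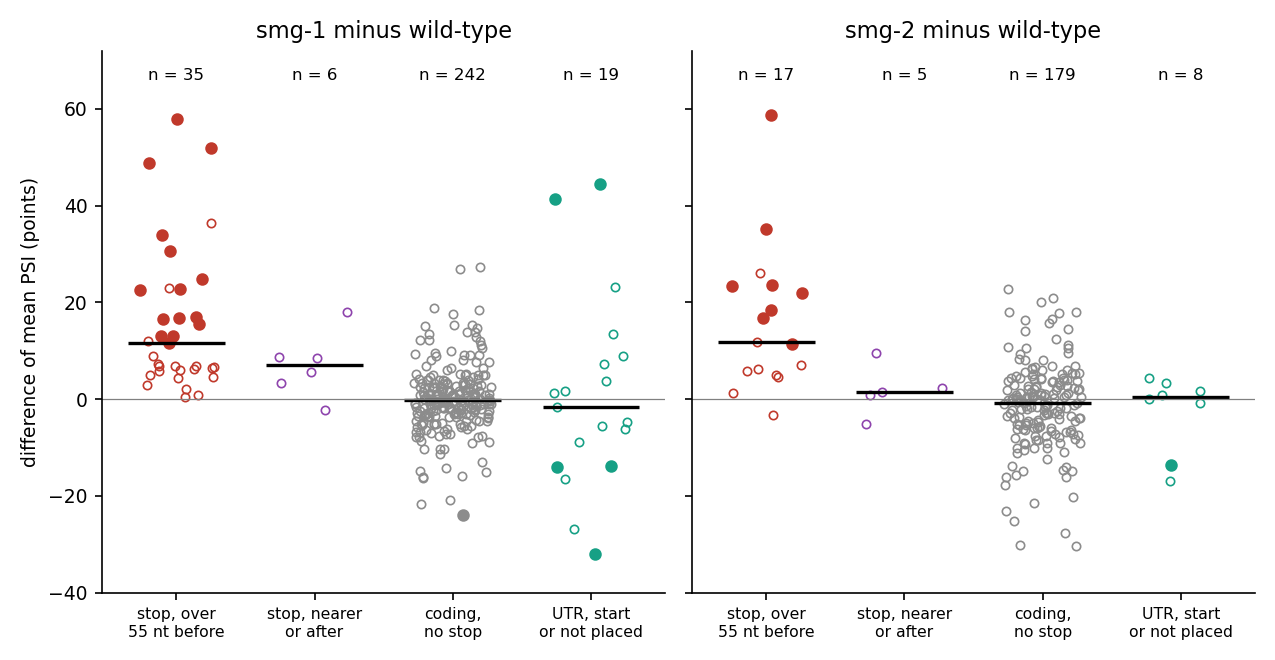
Difference of mean PSI (points), *smg-1* minus wild-type on the left and *smg-2* minus wild-type on the right, for exons grouped by stop codon class; each point is an exon, filled points were called, and bars mark medians. In *smg-1* the medians were 11.6, 7.03, -0.12 and -1.71 points from left to right. Of the 35 exons in the first group, 26 were under 5% in wild-type, where the listing allowed only a higher value.

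The 9 stop-holding exons with a small difference had a *smg-1* PSI of at most 10.5%. All had a wild-type mean under 5%, so the listing allowed only a higher *smg-1* value. They lay in *uaf-1*, the large subunit of the U2AF splicing factor, *lntl-1*, *acl-7*, an acyltransferase, *cal-5*, a calmodulin-like protein, *dsc-4*, the large subunit of the microsomal triglyceride transfer protein, *ifc-1*, an intermediate filament protein, *parg-1*, a poly(ADP-ribose) glycohydrolase, *nuaf-3* and *lron-9*. The *uaf-1* exon (chrIII:1068036-1068251, minus strand) had 10.9, 10.8 and 7.92% in *smg-1*, 11.4, 7.93 and 11.4% in *smg-2*, against 4.42, 3.92 and 4.02% in wild-type. All 6 mutant libraries were above all wild-type libraries, by 5.73 points on average in *smg-1* (adjusted p = 0.024) and 6.14 points in *smg-2* (adjusted p = 0.039). Its stop is late, at nt 199. The *acl-7* exon averaged 6.83% in *smg-1*, 5.80% in *smg-2* and had no inclusion read in wild-type.

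The 11 that did not pass were of several kinds. In *sos-1*, the Ras exchange factor whose sequence is printed above, PSI was 7.35, 8.06 and 1.89% in *smg-1*, 7.69, 4.88 and 7.41% in *smg-2*, against 5.30, 7.04 and 3.85% in wild-type, so that the groups overlapped. *Y50D7A.8*, with a stop at nt 26, had a much higher level: 33.9, 26.4 and 40.5% in *smg-1*, 25, 26.3 and 33.3% in *smg-2*, against 30, 26.97 and 37.5% in wild-type. These values overlapped in full, with differences of 2.12 points in *smg-1* (adjusted p = 0.88) and -3.27 points in *smg-2* (adjusted p = 0.78). In *egl-19*, the L-type calcium channel, the stop lay 70 nt before the last junction complex, and PSI averaged 6.32 ± 3.68% in *smg-1* and 5.39 ± 4.13% in wild-type. *jun-1*, an AP-1 factor, had 7.84% in *smg-1*, 10.3% in *smg-2* and 3.21% in wild-type (adjusted p = 0.17 and 0.16). *Y71G12B.13* and *R07B1.6* differed by 12.03 and 22.9 points in *smg-1* with adjusted p of 0.28 and 0.17. *Y48G9A.6* had wild-type values of 0 and 100% in the 2 libraries that covered it, and a difference of 36.5 points that did not pass (adjusted p = 0.78); without wild-type library 2 the difference was -13.5 points and passed (adjusted p = 0.017), with 1 wild-type library left that was assumed to vary like the others. Wild-type library 2 had 1 junction read there, and the total of library 3 could not be recovered, since its skipping usage was 0. *tmc-2*, a transmembrane channel-like protein, passed only without wild-type library 2 (12.9 points, adjusted p = 0.012), in which its PSI was 20% against 3.03% and 0% in the others. *dre-1*, *sql-1* and *tag-241* had differences of 2.92 to 5.99 points.

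**Figure D4:**
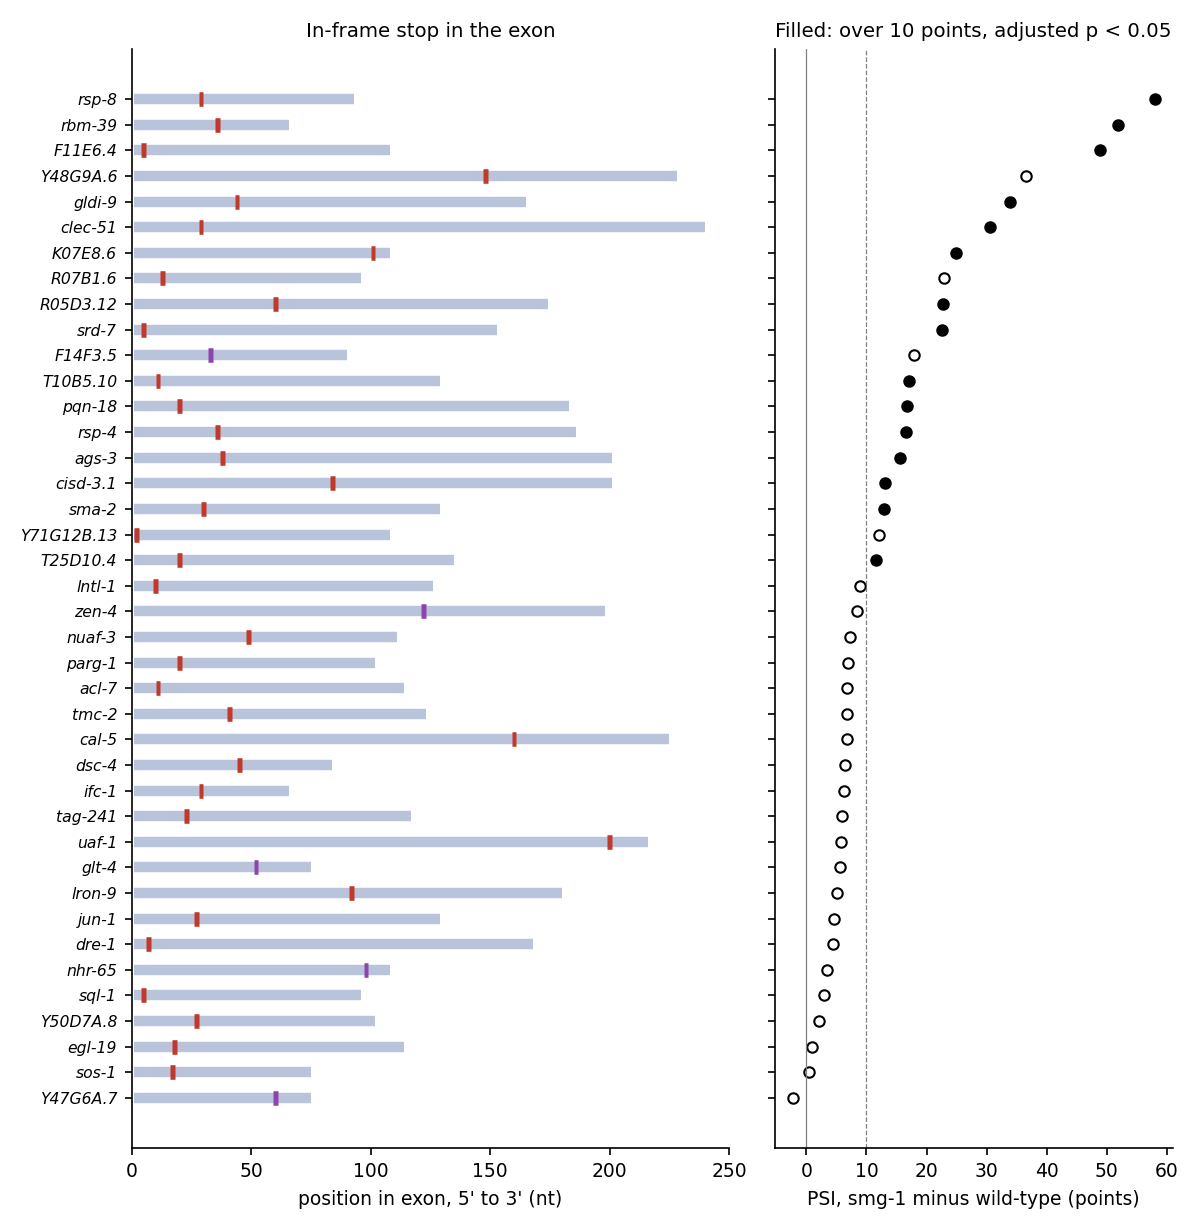
Left, the stop-holding exons apart from the 2340 nt exon of *mec-2*, drawn to scale from the first base, with the stop marked in red where it lies over 55 nt before the last junction complex and in purple otherwise; right, the difference of mean PSI, *smg-1* minus wild-type (points), filled where called. All 15 filled points belong to red stops, and both early stops such as nt 4 in *F11E6.4* and late ones such as nt 100 in *K07E8.6* occur among them.

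Exons that fell were few. The exon of *T10E9.4*, which holds the annotated start codon, was the only one that fell in both mutants, with 86.1, 84.2 and 83.4% in *smg-1*, 80.5, 85.3 and 88.9% in *smg-2*, against 98.6, 98.9 and 98.02% in wild-type. The mutant libraries overlapped each other and all lay below every wild-type library, and the differences were -13.9 points in *smg-1* (adjusted p = 0.00097) and -13.6 points in *smg-2* (adjusted p = 0.0016). *F33A8.10*, which was not placed in a coding transcript, had 87.4, 89.2 and 82% in *smg-1* and 100% in both wild-type libraries that covered it. The wild-type levels of *T10E9.4* and *F33A8.10* were over 95%, where the listing allowed only a lower mutant value, so their direction was set by it. *tsp-19*, a tetraspanin, also not placed, averaged 53.6 ± 8.30% in *smg-1* and 85.6 ± 7.23% in wild-type. *F46C5.6*, the only stop-free coding exon called, averaged 56.7 ± 5.83% in *smg-1*, 69.5 ± 12.4% in *smg-2* and 80.6 ± 4.88% in wild-type with a median of 23.5 junction reads. The calls of *tsp-19* and *F46C5.6* were lost on leaving out any *smg-1* library (adjusted p up to 0.10 and 0.085), and that of *F46C5.6* also without wild-type library 3. The number of exons that fell was 2 without any 1 of the *smg-1* libraries and 3 without wild-type library 3, in place of 4.

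No exon was called different between the mutants. In the test of *smg-2* against *smg-1*, limma called 0 of 209 (0% of 498 over all cassette exons). An unadjusted p under 0.05 was found in 15 of the 209 and in 42 of the 498. The lowest adjusted p of the 209 was 0.37. Among the 15 was the exon of *unc-103*, an ERG-type potassium channel, which averaged 59.3 ± 2.94% in *smg-1*, 80.4 ± 7.31% in *smg-2* and 62.3 ± 5.06% in wild-type (SD, n = 3 each).

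To describe the exons by role, 6 gene lists were used, and 57 of the 303 lay in 53 of their genes (*unc-89* is on both the muscle and the signalling list). Of the 6 exons in RNA-binding and splicing genes, 3 rose in *smg-1* (*rsp-8*, *rbm-39* and *rsp-4*) and 2 of the 4 with values rose in *smg-2*; 4 of the 6 held a stop. The remaining members of that list were *uaf-1*, *mbl-1* (muscleblind; 24.1 ± 3.66% in *smg-1*, 26.5 ± 8.08% in *smg-2*, 31.4 ± 2.91% in wild-type) and *larp-1*, a La-related protein (92.7 ± 2.12% in *smg-1* and 95.9 ± 2.5% in wild-type). Of the 16 exons in genes of junctions, polarity and the cytoskeleton, 1 rose in each mutant (*ags-3*). In the lists of muscle and attachment (9 exons), ion channels and synapse (13) and kinase, phosphatase and GTPase signalling (13), 0 were called by limma in either mutant, and 0, 0 and 1 had an unadjusted p under 0.05 in *smg-1*, and 0, 1 and 0 in *smg-2*. Over all cassette exons tested, 6.27% rose and 6.52% fell in *smg-1*, and 6.83% rose and 8.23% fell in *smg-2*. In lists this short, 0 calls lies close to these shares. The NMD list had a single member, *smg-6*, the endonuclease of the pathway, at 55.5 ± 3.00% in *smg-1*, 64.1 ± 18.99% in *smg-2* and 60.5 ± 15.5% in wild-type. The median difference in *smg-1* was 11.14 points in the splicing list and between -1.77 and 0.98 points in the muscle, channel, junction and signalling lists. The 4 stop-holding exons of the splicing list were all under 5% in wild-type and could be listed only as higher in *smg-1*. The lists were chosen with earlier results of these data known, so the contrast between them was not tested.

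Among genes of muscle and the basement membrane, inclusion was graded over the whole range without a called difference. *let-805*, the attachment protein myotactin, had a 99 nt exon at 12.1 ± 1.42% in *smg-1*, 9.59 ± 9.07% in *smg-2* and 9.20 ± 5.61% in wild-type. *vab-10*, the spectraplakin, had a 339 nt exon at 18.4 ± 2.10% in *smg-1*, 16.9 ± 8.09% in *smg-2* and 15.7 ± 8.36% in wild-type. The wild-type libraries of these exons overlapped in level. *let-2*, a collagen IV chain, stood at 62.8 ± 10.7% in wild-type, *fhod-1*, a formin, at 70.2 ± 6.27% and *unc-89*, the giant M-line protein obscurin, at 94.8 ± 4.57% for an exon of 2160 nt. *ttn-1*, a titin, averaged 53.4 ± 11.06% in *smg-1*, 58.1 ± 35.9% in *smg-2* and 74.3 ± 22.3% in wild-type (61.4% without wild-type library 2) with a median of 23 junction reads. Exons of signalling genes had wild-type means between 7.11% (the 138 nt exon of *egl-8*) and 94.8% (*unc-89*). Among them were those of *daf-2*, the insulin receptor (18.9 ± 3.18% in *smg-1*, 19.4 ± 6.43% in *smg-2*, 20.7 ± 2.43% in wild-type for 246 nt), and *efa-6*, an Arf exchange factor (94.7 ± 1.80% in *smg-1*, 94.4 ± 2.40% in *smg-2*, 94.1 ± 1.04% in wild-type). *lin-45*, the Raf kinase, came nearest to a call among them (86.9 ± 3.60% in *smg-1* and 75.8 ± 3.40% in wild-type; adjusted p = 0.092).

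Exons of 1 gene could sit at very different levels. *mvk-1* held 4 of the exons: in transcript order those of 327, 279, 63 and 135 nt averaged 37.0, 77.9, 8.87 and 94.9% in *smg-1*, 29.7, 73.2, 8.92 and 93.2% in *smg-2*, against 28.03, 80.1, 8.39 and 95.4% in wild-type. *egl-8*, a phospholipase C beta, held 3, of 84, 243 and 138 nt, at 79.6, 40.1 and 6.39% in *smg-1* and 83.96, 43.6 and 7.11% in wild-type. None of these was called, and the order of exons within each gene was the same in every genotype measured. *lgx-1* was unlike them, since its 3 exons of 153, 144 and 132 nt all stood between 71.9 and 86.0% in wild-type. In *T23E7.2* and *gei-4* the wild-type levels of the 2 exons were 5.72 and 92.9%, and 92.4 and 12.3%. In *gldi-9* the stop-free exon of 162 nt averaged 65.7 ± 3.5% in *smg-1* and 73.5 ± 7.15% in wild-type, beside the stop-holding exon of 165 nt that rose. The 2 exons of 210 nt in *cfh-1* are 83.3% identical in sequence, so reads could be shared between them.

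**Figure D5:**
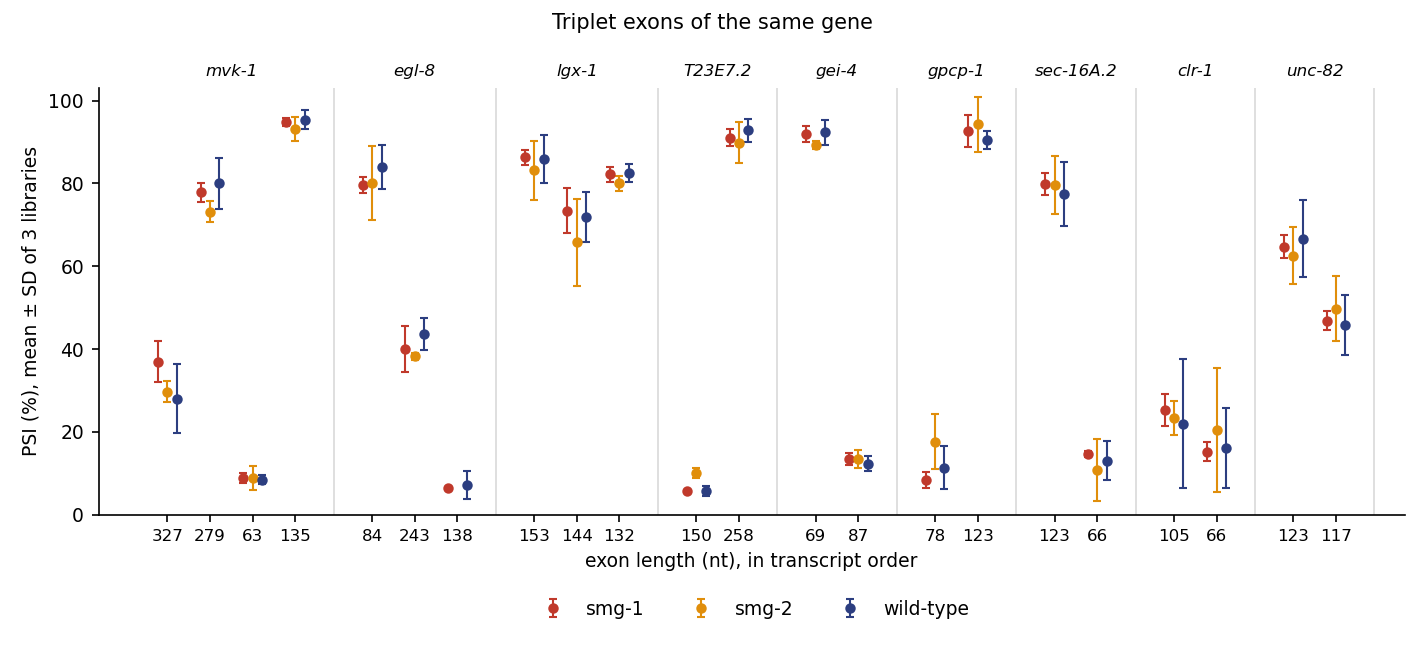
PSI (%, mean ± SD of the libraries) of the triplet exons of 9 genes with several such exons, in transcript order, with *smg-1*, *smg-2* (where it had values of its own) and wild-type from left to right at each exon. No exon drawn here was called in either mutant, and exons of *mvk-1* run between 8.39 and 95.4% in wild-type.

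Exons near the middle of the range were also ranked by how little their PSI varied over the libraries of all genotypes. The closeness of the exons picked this way follows from the choice. Among uncalled exons with at least 50 junction reads and a mean PSI of 40 to 60%, the smallest ranges over libraries were those of *crh-2*, a CREB homologue (9.76 points over 6 libraries), *C12D12.1* (11.8 points), *unc-43*, the CaM kinase II (12.2 points), the 243 nt exon of *egl-8* (13.2 points) and *uig-1* (13.3 points), the last 4 over 9 libraries. *unc-43* had 41.3, 40.1 and 45.9% in *smg-1*, 43.3, 33.7 and 38.8% in *smg-2*, against 38.9, 37.7 and 43.1% in wild-type. The 3 genotypes overlapped. Most stop-free coding exons lay near their wild-type level: 210 of 242 lay within 10 points and 163 within 5 points of wild-type in *smg-1*. The 32 beyond 10 points had a median of 34.5 junction reads, against 142 for the 210. In 239 of the 243 stop-free exons skipping made no stop at the new joint, and it removed a median of 42 codons and 5.45% of the protein (range 0.59 to 59.7%).

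Length ran between 63 and 2766 nt with a median of 126 nt. The longest were in *Y43D4A.5* (2766 nt, 47.1 ± 15.3% in *smg-1* and 62.9 ± 16.5% in wild-type), *mec-2* (2340 nt) and *unc-89*. At the lower edge, 10 exons of 63 nt just inside the limit had wild-type means between 8.39 and 96.1% (median 63.5%), and 12 exons of 60 nt just outside it had a median of 62.3%. None of either was called in *smg-1*. *tra-1*, the sex-determining zinc finger factor, held one of the 63 nt exons, at 86.8 ± 3.5% in *smg-1*, 78.15 ± 8.63% in *smg-2* and 85.8 ± 1.56% in wild-type. *daf-4*, a TGF-beta receptor, held another, at 85.3 ± 3.94% in *smg-1*, 82.8 ± 6.28% in *smg-2* and 82.9 ± 7.49% in wild-type.

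The exons also had sequence features that their length did not set. Of the 284 coding exons, 51.1% began between codons, 26.8% after 1 base and 22.2% after 2 bases of a codon, while of 32002 annotated internal coding exons of the same kind 61.3%, 19.5% and 19.2% did. A GC donor was found at 7 of the 303, at 2 of the 288 frame-shifting exons over 60 nt and at 10 of all 785. The hexamer TGCATG, the recognition sequence of the FOX-1 and ASD-1 splicing factors, was searched on the gene's strand in up to 200 nt of each flanking intron. It was found beside 66 of 303 exons (21.8%), beside 17 of 288 frame-shifting exons over 60 nt (5.90%) and beside 110 of all 785 (14.01%); the introns differ in length (median upstream intron 208 nt for the triplet exons, 297.5 nt for the frame-shifting ones), and a match is not a site. The acceptor ending TTTCAG, read on the gene's strand, was present in 59 of 303 exons (19.5%) and 182 of 785 (23.2%).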

How the data were processed

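The authors aligned reads with STAR 2.5.3a and quantified splicing with JUM 2.0.2, which required at least 5 junction reads per event, against the WS290 annotation; bedtools is also named per the labels. The deposited usage values are the fraction of an event's junction reads on the skipping junction, computed by the authors, and PSI is 100 times 1 minus this fraction. The deposited read counts are the authors' counts over that junction. Count divided by usage, with usage free to vary by 5.1e-05 for its rounding, gave whole totals in 25.8% of cells of the *smg-1* table as labelled and in 100% with the count labels of mutant and wild-type exchanged, and the columns labelled mutant were equal in both tables in 1860 of 1860 cells, so counts were exchanged and usage labels kept. Further columns with the authors' own tests were not used, and no gene expression table was used here.

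Differences were tested by limma 3.58.1 under R 4.3.3 (lmFit and eBayes) on logit PSI bounded at 1 and 99%, separately for *smg-1* and for *smg-2* versus the wild-type libraries (3 per genotype). Exons needed at least 2 values per group, which 782 met for *smg-1* and 498 for *smg-2*. The *smg-2* table held 620 exons, of which 122 repeated the *smg-1* usage within 1e-06. The test was also run on simulated data. There every library had the same spread beyond counting error and no listing limit was applied, unlike in these data. Junction reads are PCR reads, not molecules, so intervals cover counting error only, and an inclusion event counts reads of 2 junctions and a skipping event of 1. Coordinates match WBcel235 at both flanks in 751 of 785 exons, and isoforms were built on the Ensembl annotation of that assembly. Genes follow that annotation where it places the exon, which renamed 25 exons.

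The exons and the gene lists were chosen with earlier results of these data known. Named were the 12 largest rises and all falls in *smg-1*, exons of listed genes, genes with several exons, the longest exons and those of 63 nt, and the 5 steadiest exons between 40 and 60%. *sma-2*, *cisd-3.1*, *T25D10.4* and the uncalled exons with a stop were named after their values were seen. Deviations of same-numbered *smg-2* and *smg-1* libraries correlated at r of 0.125, 0.106 and 0.101, and those of differently numbered ones at -0.185 to 0.116. As these ranges overlap, the values do not settle whether replicate numbers pair libraries, and the design does not say so. Alternatives changed the thresholds, PSI limits, scale, weights, read minimum, libraries and the replicate block. Tables and intervals were made in Python 3.11.15 (pandas 2.3.3, scipy 1.17.1, numpy 2.4.6), and plots in matplotlib 3.10.9.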

Additional observations from a re-analysis of the deposited data

How the results depend on the processing

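The number of exons called was 21 in *smg-1* (17 higher, 4 lower), 9 in *smg-2* (8 higher, 1 lower) and 0 in *smg-2* against *smg-1*, and the last stayed at 0 in every alternative run. With the replicate number as a block, *smg-1* gave 19 calls (17 higher, 2 lower), *smg-2* 9 and *smg-2* against *smg-1* 0; in the first 2 comparisons same-numbered libraries did not all deviate together, so they share a number only. Limiting the count to a wild-type PSI of 10 to 90% left 4 in *smg-1* (2 higher, 2 lower) and 0 in *smg-2* (0 higher, 0 lower). A mean PSI of 5 to 95% in both groups left 5 (3 higher, 2 lower) and 0 (0 higher, 0 lower). The 10 to 90% limit was met by 206 of 302 and 164 of 209 exons. Over all cassette exons, 23 of 451 and 15 of 341 were called under it. Of the 17 rises in *smg-1*, 14 were in exons under 5% in wild-type. At 5 points *smg-1* had 32 (26 higher), at 20 points 12 (10 higher, 2 lower) and *smg-2* 5 (5 higher, 0 lower), and at an adjusted p under 0.01 *smg-1* had 2 lower. One fit over all 9 libraries, limited to the 209 exons with values in both mutants, gave 12 in *smg-1* (10 higher, 2 lower). With inclusion reads halved, *smg-1* had 10 higher, and the median wild-type PSI was 44.6% in place of 58.3%, since the included isoform has 2 junctions. Weights from junction reads gave 2 lower in *smg-2*. Leaving out each library gave 14 to 23 in *smg-1* (12 to 18 higher, 2 to 5 lower), 7 to 10 in *smg-2* (6 to 9 higher, 1 to 2 lower) and a median wild-type PSI of 58.4 to 61.2%. The other alternatives stayed within 1.5 times these counts. No exon called in *smg-1* or *smg-2* changed sign in any alternative, but the uncalled exon of *Y48G9A.6* did: its *smg-1* difference was 36.5 points with all libraries and -13.5 points, then called lower, without wild-type library 2, where 1 wild-type value was left, and 86.5 points without wild-type library 3. Among stop-free exons, the 32 that differed by over 10 points in *smg-1* had a median of 34.5 junction reads and the 210 within 10 points 142.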
